A study of Homo sapiens with 24 samples.

Results

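Open chromatin was compared in RES-A cells that kept enzalutamide (ENZ) and RES-A cells from which it was withdrawn. RES-A is a subline of the human prostate cancer line LNCaP, selected by long growth under ENZ, and stands here as 1 resistant model. All 6 libraries came from cells grown for 3 days in medium with 5% DCC FBS, serum stripped of steroid hormones, with 10 µM ENZ, so that both groups had met the drug before the comparison began. In the ENZ group the cells then received 10 µM ENZ for 18 h, and in the DMSO group they received the solvent alone for 18 h, both without added androgen. The members were chosen by their sample titles, 3 libraries in each group and 6 of the 24 libraries of the series. The other groups read below are RES-A treated for 18 h with 10 nM dihydrotestosterone (DHT), an androgen, with (DHT+ENZ) or without (DHT) 10 µM ENZ after the same preculture, and parental LNCaP, precultured without ENZ, under the same 4 treatments.

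ENZ is an anti-androgen, a drug given against prostate cancer to block the response to androgens. Prostate cancer cells depend on these hormones for growth, and androgens change gene expression by way of enhancers and promoters. Sites that regulatory proteins occupy tend to be depleted of nucleosomes, and FAIRE-seq sequences such DNA after formaldehyde fixation, from the aqueous phase of a phenol extraction. Each library was deposited as its own list of peaks, stretches with more reads than expected, in hg19 coordinates. The fold enrichment of a peak is its read pileup over the expected pileup, and is the measure of openness used here. It is an average over all cells, and a site open in fewer cells cannot be told apart from a site less open in each cell. The lists carry no gene names, and an hg19 annotation was not used here, so regions are given by position, and genes and sequences at them were not analysed here.

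On fold enrichment, 0 of 67120 regions passed the test between keeping and withdrawing ENZ, while on the read pileup 36 (0.0536%) did. In a fit of the 12 RES-A libraries on fold enrichment, DHT against DMSO gave 6199 of 65817 regions (9.42%) and ENZ against DMSO 0. The ENZ libraries held 196128, 240262 and 186832 peaks. The DMSO libraries held 194848, 204397 and 199686 peaks. One ENZ library, replicate 2, lay above all others, and ENZ replicate 3 lay below all others. ENZ replicate 1 lay within the DMSO range. The means were 207741 ± 28545 and 199644 ± 4775 peaks (SD, n = 3), a difference of 8097 (exact two-sided permutation test, p = 0.9). With 3 libraries against 3, this exact permutation test cannot go below p = 0.1. Without ENZ replicate 2 the difference turned to -8164 peaks.

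The lists give no read totals, and a background in reads per base, recovered from the lists, served as a relative measure of depth. It was 2.27, 4.48 and 2.57 in the ENZ libraries and 2.73, 3.50 and 3.49 in the DMSO libraries, with ENZ replicate 2 the highest of the 6 in both measures. The group means, 3.11 ± 1.2 and 3.24 ± 0.44 reads per base, differed by less than the spread between libraries (exact permutation p = 0.9). To match the number of peaks, the 50000 ranked highest on -log10 p were taken from each library and are called top-ranked below. This does not remove depth: at rank 50000 the -log10 p was 31.2 in ENZ replicate 2 and 19.9 in ENZ replicate 1, with median lengths of 407 and 362 bp. The median fold enrichment of these peaks was 9.48 ± 0.09 in ENZ and 9.31 ± 0.46 in DMSO (SD, n = 3; exact permutation p = 0.4). Their median length was 379 ± 25 bp and 374 ± 10 bp (exact permutation p = 0.9). The difference in the height and in the width of the open sites was smaller than the spread between libraries of at least 1 group. The difference in median fold enrichment, 0.17, ran from 0.033 to 0.436 when 1 library was left out, and reached the smallest possible p without DMSO replicate 3 (exact permutation p = 0.1).

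**Figure D1:**
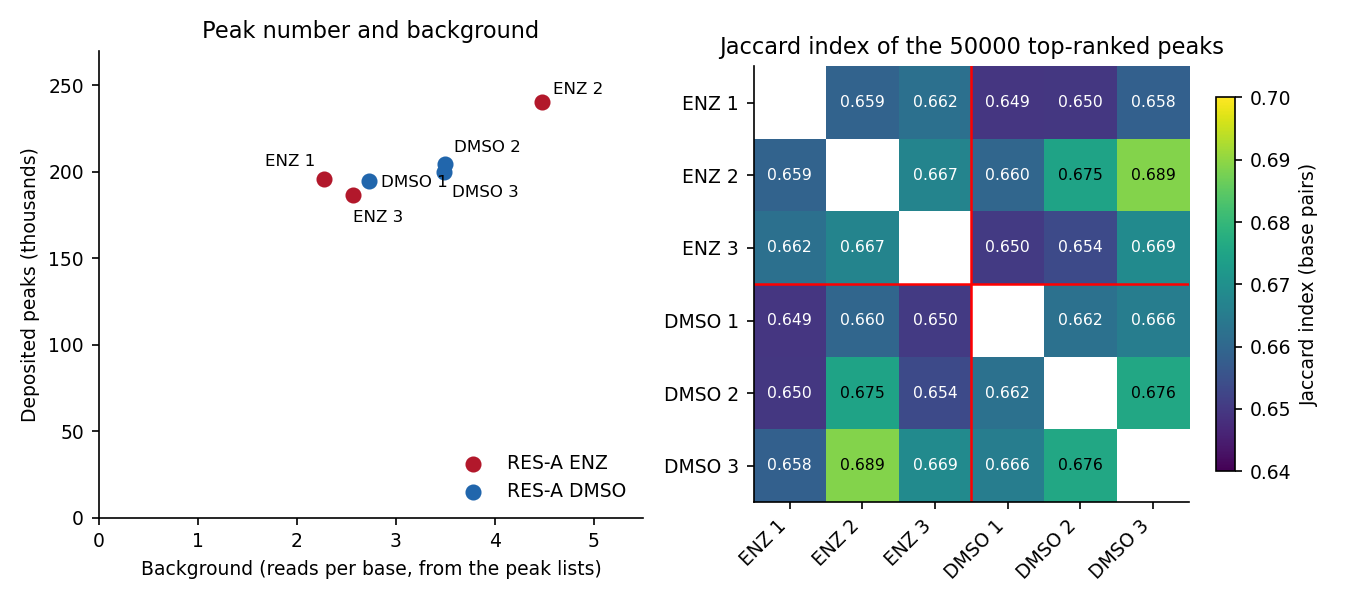
Left, deposited peaks (in units of 1000) against the background (reads per base) of the 3 ENZ and 3 DMSO libraries of RES-A, 1 point per library. ENZ replicate 2 stands highest on both axes, and the other 5 lists hold between 186832 and 204397 peaks. Right, the base-pair Jaccard index of the 50000 top-ranked peaks for each pair of libraries, with red lines between the groups; pairs across the lines reach both the lowest (0.649) and the highest (0.689) value.

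The libraries were compared pair by pair. The Jaccard index, which divides the bases common to both lists by the bases in at least 1 of them, was between 0.659 and 0.667 for pairs of ENZ libraries. Pairs of DMSO libraries gave 0.662 to 0.676. The 9 pairs of 1 ENZ and 1 DMSO library gave 0.649 to 0.689 and so spanned both ranges. The nearest library belonged to the same group for 3 of the 6, and the closest pair of all was ENZ replicate 2 with DMSO replicate 3. Within-group indices exceeded between-group indices by 0.0038 on average (exact permutation over the relabellings, one-sided by construction, p = 0.2). The separation was 0.0065 over merged regions and 0.011 without ENZ replicate 2, both at the smallest possible p (exact permutation p = 0.1), and as low as 0.00035 without DMSO replicate 1. By contrast, the mean index with RES-A DHT libraries was 0.544 for ENZ and 0.538 for DMSO libraries, and with RES-A DHT+ENZ libraries 0.638 and 0.628. Against the parental LNCaP groups the mean indices of both RES-A groups lay between 0.330 and 0.435, a set that includes 2 shallow LNCaP libraries.

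The open sites of the ENZ and DMSO libraries were then laid over each other. The top-ranked peaks of the 6 libraries merged into 67327 regions, typically short (median 425 bp). A total of 34462 (51.2%) had a top-ranked peak in all 6 libraries, and 9602 (14.3%) in only 1. A top-ranked peak in 3 of 3 ENZ and 0 of 3 DMSO libraries was found at 368 regions (0.547% of all regions), and the reverse at 334 regions (0.496%). These 702 regions were absent from the top ranks of the other group and not from its lists: all 368 had a peak of lower rank in all 3 DMSO libraries, and all 334 had one in all 3 ENZ libraries. The number of regions with no peak of any rank in the other group was thus 0 in either direction.

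Differences at these 702 regions were shifts across the rank limit. The median fold enrichment of the 368 ENZ regions was 8.35, 8.23 and 8.08 in the ENZ libraries and 6.0, 6.06 and 6.85 in the DMSO libraries. At the 334 DMSO regions it was 6.59, 6.87 and 6.36 in the ENZ libraries and 7.88, 7.93 and 8.71 in the DMSO libraries. Presence in the lists chose these regions, and the gap between the groups is given as a description. The median percentile of the 368 regions in their lists by -log10 p was 80.4 in ENZ and 69.3 in DMSO, and that of the 334 regions 70.1 and 79.0. The regions were spread over the chromosomes, from 0.327% of the merged regions on chromosome 19 to 1.40% on chromosome 14.

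Of the 67327 regions, 67120 (99.7%) overlapped a peak of some rank in all 6 libraries, and their fold enrichment was compared with limma after quantile normalization. None was called at an adjusted p under 0.05 (0 of 67120, 0% called), and the smallest adjusted p was 0.355. At an unadjusted p under 0.05 there were 4147 regions (6.18%), 2141 higher in ENZ and 2006 higher in DMSO. The fit also gives a 95% interval for each region, not adjusted for the number of regions. The largest differences were 0.99 and -0.99 on the log2 scale, the median standard error was 0.15, and the 95% interval of the difference lay within 1 log2 unit (2-fold) in either direction at 99.7% of regions and within 1.5-fold at 86.8%. The remaining 207 regions lacked a peak in some library, most often in DMSO replicate 2 (111 regions) and ENZ replicate 1 (49 regions), and none of the 207 had a peak in all libraries of 1 group and in none of the other.

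The precision of the comparison grew with the height of the peaks. The 67120 regions were cut by mean fold enrichment into 4 equal tiers of 16780. In the weakest tier, the absolute log2 difference had a median of 0.13 and a 95th percentile of 0.42. In the strongest tier, with a mean fold enrichment from 10.4 to 25.7, these values were 0.07 and 0.24. The median residual SD between libraries fell alongside, from 0.20 to 0.12. The share of regions at an unadjusted p under 0.05 was 7.35% in the weakest and 5.43% in the strongest tier. The 611 regions of 1000 bp or longer had 8 regions in each direction at that level (2.62% in all) and no call. In the strongest tier and at the long regions the 95% interval lay within 2-fold at 100% of regions.

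Regions outside the top ranks held faint presence differences. All deposited peaks merged into 365220 regions, of which 149870 (41.0%) held a peak in 1 library alone. A peak of any rank in 3 of 3 ENZ and 0 of 3 DMSO libraries was found at 1248 regions (0.342%), and the reverse at 609 (0.167%). Their median fold enrichment was 3.36 and 3.22, against 4.55 over all these regions. The largest value that all 3 libraries of the holding group reached was 4.93 in ENZ and 4.36 in DMSO. The background was highest in ENZ replicate 2 and lowest in ENZ replicates 1 and 3, and the part of depth in the unequal counts was not tested. In the consensus form, with a region kept when 2 of 3 libraries of a group held it, 13.5% of 178017 ENZ regions and 10.2% of 171640 DMSO regions overlapped no region of the other group. The difference was 3.32 percentage points (exact permutation p = 0.9), and was 0.47 points over the top-ranked peaks (p = 0.3, exact permutation). Leaving out a library makes the rule 2 of 2 for that group and shortens its list, so the difference became -8.87, -16.0 and -7.38 points without ENZ replicate 1, 2 or 3, and 14.1, 16.3 and 18.7 points without DMSO replicate 1, 2 or 3.

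Same-region contrasts in RES-A give the scale on which the ENZ to DMSO comparison can be read. A fit of the 12 RES-A libraries covered 65817 of these regions with a peak in all 12. DHT minus DMSO called 6199 regions (9.42%), 3345 higher and 2854 lower with DHT. DHT minus ENZ called 4881 regions (7.42%), 2196 higher and 2685 lower with DHT. These contrasts share libraries with each other and with ENZ minus DMSO. For the latter the same fit called 0 regions (0%), with 4082 (6.20%) at an unadjusted p under 0.05. DHT+ENZ minus DHT called 337 regions (0.512%), of which 266 were higher and 71 lower with ENZ. Its means hold none of the 6 libraries, but these took part in the fit's spread and chose the regions. A tested region had to be top-ranked in an ENZ or DMSO library, which left out most sites open with DHT alone: of 1672 regions open in DHT and not in DHT+ENZ, 325 were among those tested in the 6 libraries, against 1297 of 1312 of the reverse kind. The balance of 266 to 71 therefore holds only for regions chosen in this way. That count fell to between 58 and 181 when 1 of the 6 libraries of these groups was left out, lowest without DHT+ENZ replicate 1, and DHT minus DMSO to between 4034 and 4738 and DHT minus ENZ to between 2773 and 3282 without 1 of their own. Differences of 1 log2 unit or more were seen at 2 regions for ENZ minus DMSO, 245 for DHT minus DMSO and 7 for DHT+ENZ minus DHT. The 95th percentile of the absolute log2 difference was 0.35, 0.59 and 0.43 in the same order.

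**Figure D2:**
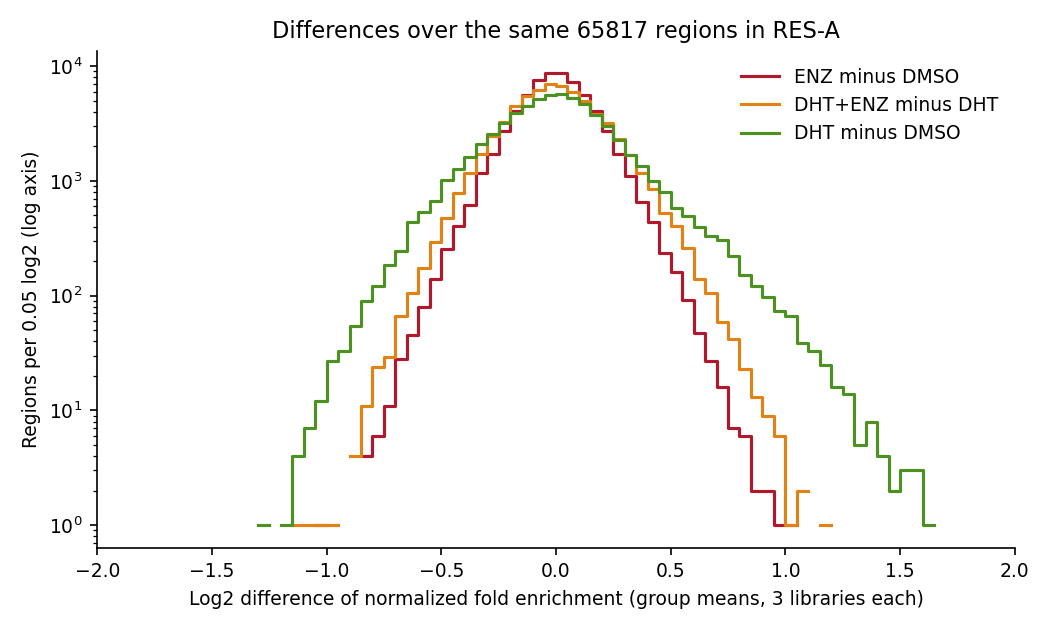
Log2 differences of quantile-normalized fold enrichment between group means of 3 libraries over the same 65817 regions, as regions per bin of 0.05 log2 units on a log axis. The ENZ minus DMSO curve is the narrowest, with 2 regions at 1 log2 unit or beyond, and the DHT minus DMSO curve the widest, with 245.

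The ENZ and DMSO libraries were read at the regions called between DHT+ENZ and DHT. At the 266 regions higher with DHT+ENZ than with DHT, the median normalized fold enrichment was 6.85, 6.81 and 7.17 in the DHT and 11.1, 11.1 and 11.0 in the DHT+ENZ libraries, whose difference chose them. It was 11.3, 11.0 and 11.1 in the ENZ libraries. In the DMSO libraries it was 10.5, 10.8 and 11.0. Both groups without DHT were near the level of DHT+ENZ, and their ranges overlapped. Since the regions had to be top-ranked in an ENZ or DMSO library, a high level in these groups follows in part from the choice of regions. Of these regions, 176 (66.2%) were higher in ENZ than in DMSO, against 49.9% of all 65817 regions, with a median log2 difference of 0.07. At an unadjusted p under 0.05, 19 of them were higher in ENZ (7.14%, against 3.30% of all regions). Higher in DMSO at that level were 5 of them, against 1907 of all 65817 regions.

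At the 71 regions lower with DHT+ENZ than with DHT, the median was 11.5, 11.5 and 11.4 in the DHT libraries and 7.21, 7.52 and 6.55 in the DHT+ENZ libraries. It was 7.18, 7.11 and 7.28 in the ENZ libraries and 6.69, 6.60 and 6.97 in the DMSO libraries. The ENZ range of these medians lay above the DMSO range, and both lay below the DHT range. Of these regions 38 (53.5%) were higher in ENZ than in DMSO, against 49.9% of all regions. The median log2 difference of the single regions was 0.006, with quartiles of -0.13 and 0.15.

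**Figure D3:**
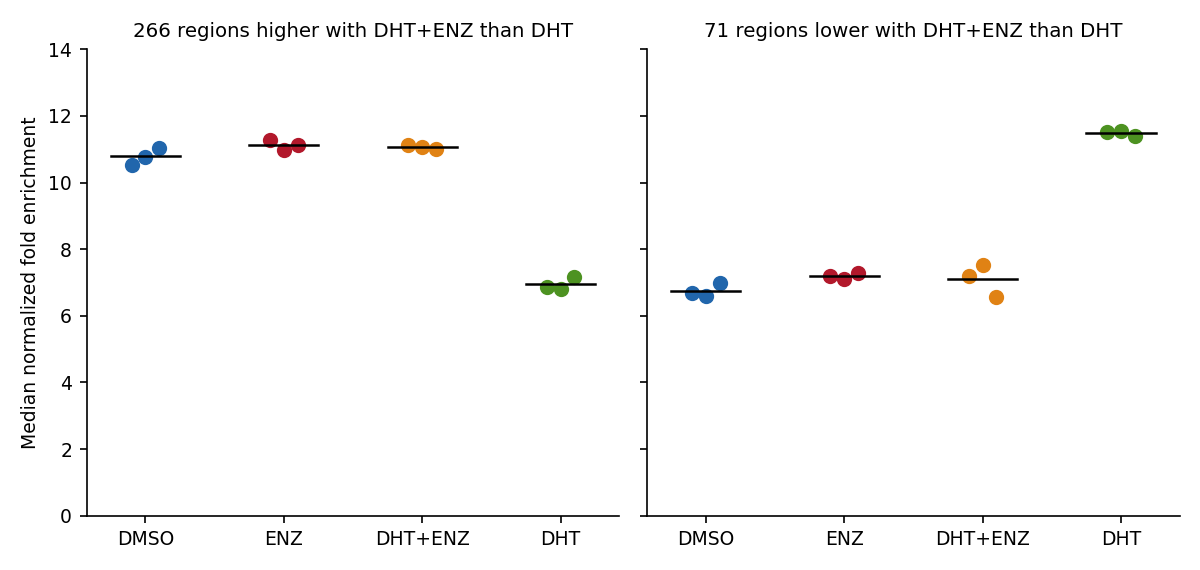
Median normalized fold enrichment in each RES-A library over the 266 regions called higher (left) and the 71 called lower (right) in DHT+ENZ than in DHT; points are libraries and lines are means of 3. The difference between DHT and DHT+ENZ chose the regions from those top-ranked in an ENZ or DMSO library; the ENZ and DMSO libraries lie at 10.5 to 11.3 on the left and 6.60 to 7.28 on the right.

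Presence in the top ranks was also read over wider sets, chosen in libraries other than the 6. At 1672 regions with a top-ranked peak in 3 of 3 RES-A DHT and 0 of 3 DHT+ENZ libraries, the share that also held one was 6.58%, 7.66% and 8.37% in the ENZ and 8.43%, 8.25% and 8.13% in the DMSO libraries. Most of these sites were outside the top ranks in either group, and the ranges overlapped. The difference was -0.74 percentage points (exact permutation p = 0.3, adjusted over 6 sets 0.45). At the 1312 regions of the reverse kind, the share was 80.3%, 87.1% and 82.9% in ENZ and 80.0%, 79.8% and 81.2% in DMSO. The difference was 3.10 points (exact permutation p = 0.2, adjusted 0.4), and every one of the 1312 regions had a peak of some rank in all 6 libraries. Over all 71747 merged regions of the 2 DHT groups, the shares were 66.5% and 66.2%.

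Sets chosen in parental LNCaP were read in the same way. Of 1803 regions that DHT opened in LNCaP, top-ranked in 3 of 3 DHT and 0 of 3 DMSO libraries, 8.99%, 7.93% and 7.99% were top-ranked in the ENZ libraries of RES-A. In the DMSO libraries the shares were 7.60%, 6.71% and 7.10%, all below the ENZ range. This gap of 1.16 points reached the smallest p the design allows (exact permutation p = 0.1, adjusted 0.4), while over all 84248 merged regions of the same LNCaP groups the shares were 47.1% and 47.4%. It was 0.80 points when the set was chosen without the 2 shallow LNCaP libraries (exact permutation p = 0.2), 1.31 with 25000 peaks (p = 0.3, exact permutation) and 2.03 with all peaks (p = 0.4, exact permutation). Of 1450 regions that DHT closed in LNCaP, 64.2% ± 2.5 were top-ranked in ENZ and 66.4% ± 0.7 in DMSO (SD, n = 3; exact permutation p = 0.2, adjusted 0.4). At the 178 regions open in LNCaP ENZ and not in LNCaP DMSO, the shares were 33.0% ± 1.7 and 35.8% ± 4.1 (exact permutation p = 0.4). At the 541 regions of the reverse kind they were 33.2% ± 3.1 and 35.4% ± 2.0 (exact permutation p = 0.5). None of the 6 sets passed the correction.

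**Figure D4:**
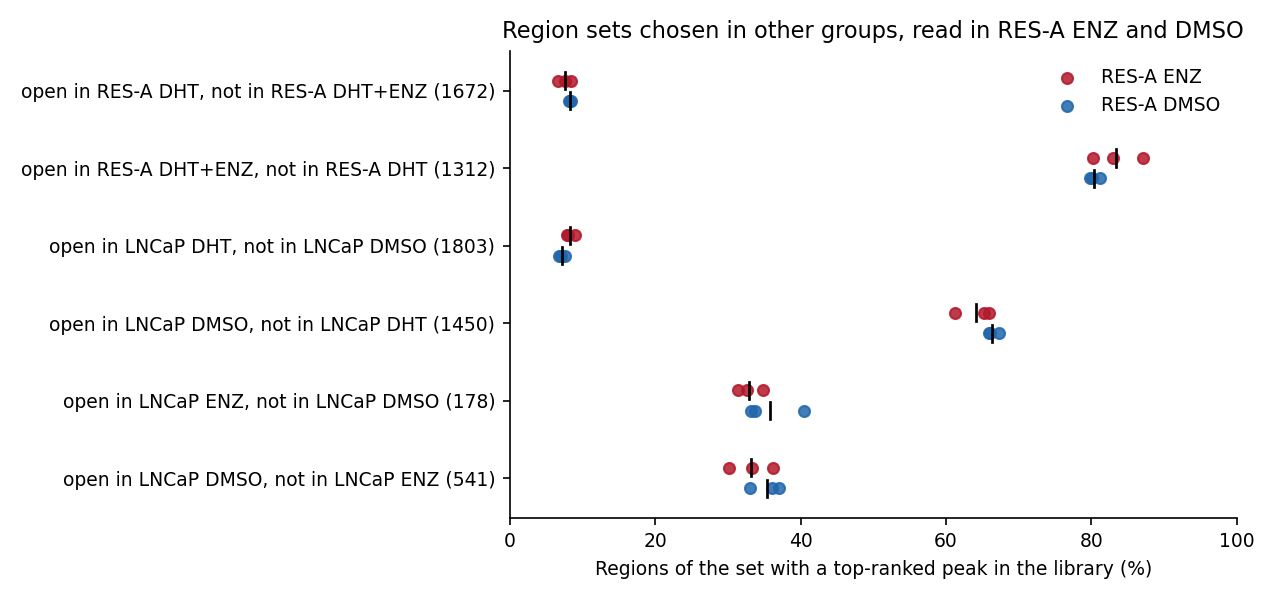
Percent of 6 region sets with a top-ranked peak in each RES-A ENZ (red) and RES-A DMSO (blue) library; points are libraries, black lines are means of 3, and the number of regions of each set stands in brackets. The 2 groups lie within 3.10 percentage points of each other in mean for every set, while the sets range from about 7.14% to 83.4%.

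The 702 regions of 1 group alone were also read in libraries that had not chosen them. The 368 ENZ regions were top-ranked at 58.7%, 60.3% and 59.2% in the DHT+ENZ and at 51.1%, 52.4% and 50.3% in the DHT libraries of RES-A. The gap of 8.15 points had the smallest p the design allows (exact permutation p = 0.1, adjusted over 6 readings 0.6), so it could not pass the correction. Over all 67327 regions the shares moved the same way, from 64.8% with DHT to 70.3% with DHT+ENZ. With the regions chosen without 1 of the 6 libraries, the gap ran from 4.22 points without ENZ replicate 2 to 11.9 points without DMSO replicate 1. In fold enrichment, 178 of the 368 regions (48.4%) were higher with DHT+ENZ, against 48.6% of all regions. The 334 DMSO regions were top-ranked at 38.6% ± 5.9 with DHT+ENZ and 37.1% ± 3.4 with DHT (SD, n = 3; exact permutation p = 1). In parental LNCaP, the ENZ regions were top-ranked at 34.5% ± 5.9 with ENZ and 36.6% ± 1.0 with DMSO (exact permutation p = 0.9), and the first value includes the shallow ENZ replicate 1 of LNCaP. For the DMSO regions these shares were 36.2% ± 4.1 and 40.1% ± 5.8 (exact permutation p = 0.5). Between LNCaP DHT+ENZ and DHT the shares were 42.3% and 39.8% for the ENZ regions and 36.9% and 33.3% for the DMSO regions (exact permutation p = 0.6 for both).

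Whether the ENZ effect differed between RES-A and LNCaP was tested directly. Of 102523 merged regions, the 40025 with a peak in all 12 libraries of the ENZ and DMSO groups could be tested. Sites that lacked a peak in an LNCaP library were left out. The interaction called 0 regions (0%; limma), with 1571 (3.93%) at an unadjusted p under 0.05, and 0 also with median centring. The spread of this fit includes the LNCaP libraries. In it, ENZ minus DMSO in RES-A had 545 regions (1.36%) at that level, against 6.18% in the fit of 6 libraries. Without the shallow LNCaP library, 69197 regions could be tested, with 0 calls and 3775 (5.46%) at an unadjusted p under 0.05. ENZ minus DMSO in LNCaP called 0 of 40025 regions (0%), with 3267 (8.16%) at an unadjusted p under 0.05. Without that library it called 4 of 69197 (0.00578%). Within RES-A, the ENZ effect with DHT was set against the ENZ effect without it, and 3 of 65817 regions (0.00456%) differed. Each had a positive ENZ minus DMSO and a negative DHT+ENZ minus DHT difference, a pattern that the choice by this test favours.

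The highest-ranked region of ENZ alone lay at chr2:235244345-235244834 (490 bp). Its fold enrichment was 14.1, 12 and 10.8 in the ENZ libraries and 7.78, 7.11 and 8.03 in the DMSO libraries. The ranges did not overlap, which occurred in favour of ENZ at 6.92% of all regions on the deposited scale and in favour of DMSO at 3.58%, and after quantile normalization at 5.62% and 5.31%. The log2 difference was 0.66 ± 0.12 (SE), and the limma adjusted p was 0.355. The DHT libraries stood at 8.36, 6.75 and 6.50, close to DMSO, and the DHT+ENZ libraries at 10.8, 10.7 and 10.2, close to ENZ. In the fit of 12 libraries, whose spread includes ENZ and DMSO, the DHT+ENZ minus DHT difference was 0.56 ± 0.13 (limma adjusted p = 0.0457). No LNCaP library of the ENZ, DMSO or DHT groups had a peak there, and 1 DHT+ENZ library did.

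The other leading ENZ regions were 2 on chromosome 18 and 1 each on chromosomes 17 and 6. At chr18:29237672-29238182 the fold enrichment was 10.6, 9.33 and 8.61 in ENZ and 7.24, 6.04 and 6.91 in DMSO. At chr18:66989761-66990288 it was 10.9, 10.9 and 9.78 against 7.33, 6.91 and 8.25. The groups kept apart at both, and at the second all 12 LNCaP libraries also had a peak. At chr17:40795976-40796406 the values were 11.3, 10.6 and 12.3 against 7.25, 7.55 and 8.47, and at chr6:2477962-2478325 they were 10.9, 10.3 and 12.6 against 7.24, 7.33 and 7.97. All 4 had adjusted p-values between 0.492 and 0.675 (limma), and none passed for DHT+ENZ minus DHT (limma adjusted p from 0.25 to 0.979).

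Among regions of DMSO alone, chr7:5569350-5569813 ranked first, with 4.43, 4.69 and 5.40 in ENZ and 7.80, 7.28 and 7.82 in DMSO. Its log2 difference was -0.69 ± 0.16 (limma adjusted p = 0.528). The region at chr3:186545235-186545598 had 6.82, 7.77 and 5.88 in ENZ and 9.65, 10.9 and 12 in DMSO, a log2 difference of -0.71 ± 0.14 (limma adjusted p = 0.398). It was the single region that both naming rules picked. The regions at chr15:62352561-62353124, chr12:40158796-40159134 and chr1:619969-620304 had log2 differences of -0.45, -0.40 and -0.42 (limma adjusted p from 0.675 to 0.77). In all 5 the libraries of the groups did not overlap, and the presence rule that chose them, by rank on -log10 p, favours that pattern.

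**Figure D5:**
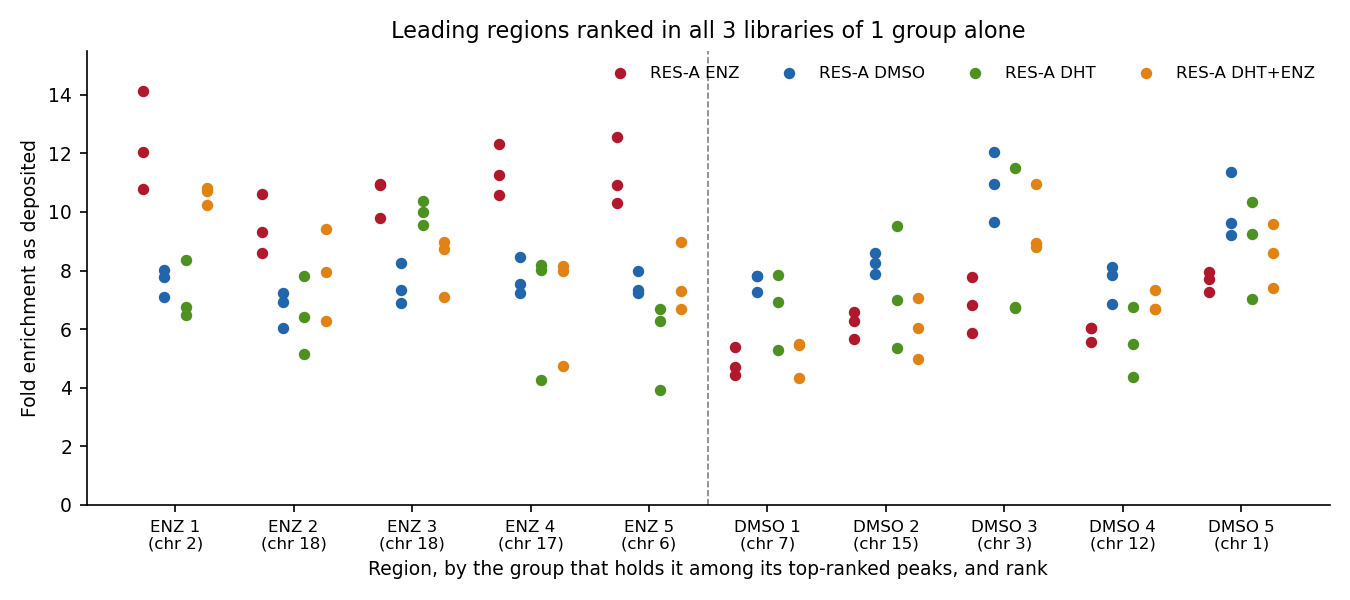
Fold enrichment as deposited (linear axis) in the 3 libraries of each RES-A group at the 5 leading regions of ENZ alone (left of the dashed line) and of DMSO alone (right), labelled by rank and chromosome. ENZ and DMSO points do not overlap at any of the 10 regions, a pattern that the choice by rank favours. At the first ENZ region the DHT+ENZ libraries (10.2 to 10.8) lie above the DHT libraries (6.50 to 8.36).

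The regions with the smallest p in the fit were named in each direction. Higher in ENZ were chr5:176252680-176253033 (12.2, 7.85 and 9.81 against 5.10, 4.67 and 4.68), with the largest difference of all at 0.99 ± 0.18 on the log2 scale, and chr13:46014522-46014870 (8.86, 7.12 and 6.44 against 3.49, 3.78 and 4.46) at 0.90 ± 0.17. They were joined by chr11:115524606-115525048 at 0.59, chr1:18502327-18502589 at 0.88 and chr17:74278163-74278523 at 0.65. All 5 shared the smallest limma adjusted p, 0.355. At 4 of the 5 the DHT+ENZ minus DHT difference was negative, between -0.19 and -0.46. At the region on chromosome 5 it was 0.69 (limma adjusted p = 0.108), from 5.01, 3.91 and 4.57 with DHT to 11.3, 7.37 and 5.46 with DHT+ENZ.

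Higher in DMSO by the same rule was chr20:11566459-11566723, at 3.06, 5.11 and 4.05 in ENZ and 7.96, 6.87 and 8.55 in DMSO, a log2 difference of -0.99 ± 0.19. At chr21:45230706-45231057 the values were 8.55, 10.4 and 9.81 against 13.7, 14.7 and 14. At chr11:120555664-120556007 they were 7.94, 9.31 and 7.28 against 13.4, 11.8 and 12.5. The fourth, on chromosome 3, is described above, and the fifth lay at chr1:223744186-223744785 with a difference of -0.53. The limma adjusted p-values were 0.355 or 0.398, and none of the 5 passed for DHT+ENZ minus DHT (limma adjusted p from 0.253 to 0.997).

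Along the genome, the share of top-ranked peaks was compared in 306 windows of 10 Mb. No window was called (0 of 306, 0%; limma), and 24 (7.84%) had an unadjusted p under 0.05. The log2 differences ran from -0.17 to 0.31. Lowest in p was the window at 100000001 to 110000000 on chromosome 10, which held 0.337% of the peaks in ENZ and 0.367% in DMSO (log2 difference -0.12 ± 0.03, limma adjusted p = 0.358). It was followed by windows lower in ENZ at 20000001 to 30000000 on chromosome 14 (0.379% against 0.412%) and 150000001 to 160000000 on chromosome 7 (0.314% against 0.341%). Higher in ENZ were 20000001 to 30000000 on chromosome 6 (0.545% against 0.511%), the same interval on chromosome 15 (0.139% against 0.119%) and 40000001 to 50000000 on chromosome 13 (0.309% against 0.286%). These 5 had a limma adjusted p of 0.416.

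The absence of calls depended on the measure. With the pileup at the summit in place of fold enrichment, 36 of 67120 regions (0.0536%) were called, 34 higher in ENZ and 2 in DMSO. Of the 36, 35 had the same direction in fold enrichment and 34 an unadjusted p under 0.05 there. Fold enrichment is the pileup over the expected pileup in the same libraries, so this is not a separate check. The first region of ENZ alone was among them, with 53, 82 and 52 reads at its summit in ENZ and 28, 31 and 35 in DMSO (pileup log2 difference 1.01 after normalization, limma adjusted p = 0.00011). So was the first of DMSO alone, with 30, 57 and 36 reads against 63, 67 and 78 (-0.77, limma adjusted p = 0.0043). The calls also held chr2:33091665-33092309, with 120, 157 and 142 reads in ENZ and 138, 49 and 129 in DMSO (limma adjusted p = 0.00011). At chr2:33141170-33141825 the reads were 336, 344 and 349 against 342, 254 and 343 (limma adjusted p = 0.0090), with fold enrichment in the opposite direction. At both regions the groups overlapped in reads, and DMSO replicate 2 was lowest. The calls leaned on single libraries: leaving out 1 of the 6 gave between 10 and 59 calls (10 without ENZ replicate 1, 11 without ENZ replicate 3, 13 without DMSO replicate 2 and 59 without ENZ replicate 2), and between 8 and 26 of the 36 were called again. In the DHT groups, 19 of the 34 regions higher in ENZ were also higher in DHT+ENZ than in DHT, against 48.8% of all regions, and the median log2 difference was 0.05 against -0.01. Of the same 34, 28 were higher in DHT than in DMSO, against 49.4% of all regions. That comparison shares the DMSO libraries that chose the regions.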

How the data were processed

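FAIRE-seq was deposited for 24 libraries of LNCaP and RES-A, 3 biological replicates in each of 8 groups; groups and numbers came from the titles. Reads were single-end, of 50 bp; the submitters' processing notes name hg19, BWA 0.7.8-r455, Picard 1.118 and MACS2 2.1.0, the peak caller, which the authors ran on every library by itself; duplicate reads were marked, and whether a control library was used is not given in the sources used here. The deposited lists hold a pileup (signal: reads over the summit, in whole reads), a p-value and a q-value as −log10, and a fold enrichment (ratio), as the authors' peak caller wrote them. Other lengths and positions are in bp, 1-based. The smallest −log10 q was near 1.30 in each of the 6 lists, which is where q = 0.05 falls, and no peak was under 100 bp.

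The members, region sets and tests were chosen with earlier results of these data known. Peaks on chromosomes 1 to 22, X and Y were used; between 0.393% and 0.435% of peaks lay elsewhere. The 50000 peaks with the highest −log10 p of each library were merged at 1 bp overlap. A region's value was the highest fold enrichment among its peaks of any rank. Log2 values were quantile normalized and compared with limma 3.58.1 (lmFit, eBayes with trend) in R 4.3.3, with Benjamini-Hochberg adjustment over all regions and a threshold of 0.05. Single values were compared by exact two-sided permutation of the libraries in Python 3.11.15. Background was the smallest (pileup + 1) / fold − 1 in a list, which assumes that the peak caller added 1. It ranks depth and is not a read total; since the lists give no read totals, no interval for counting error was made. Named were the 5 regions per direction with the smallest p, the 5 per direction with the highest lowest-of-3 percentile among regions of 1 group alone, and the 3 windows per direction with the smallest p, leaving out windows averaging under 20 peaks. The scripts were tested on simulated data. There, 74 of 100 regions changed by 1 log2 unit were called on fold enrichment, and 47 of 100 on pileup. At a change of 2 log2 units these were 95 and 97 of 100.

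Alternatives changed the number of top-ranked peaks, the normalization, the measure, the window, the block and the libraries. Contrasts with DHT, refits of the pileup and readings without 2 shallow LNCaP libraries were added after seeing the data. Gene lists and markers were not used, as the reference at hand was GRCh38. Results that need items withheld from this text are not reported here.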

Additional observations from a re-analysis of the deposited data

Results flagged for a closer look

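The effect of ENZ differed with and without DHT at 3 regions of RES-A, by the interaction term of limma over 12 libraries. They were chosen by this test after the data were seen. At chr9:137426608-137426948 the fold enrichment was 10.7, 11.5 and 9.53 with ENZ, 6.71, 5.33 and 6.91 with DMSO, 14.2, 11.4 and 14.2 with DHT and 10.4, 7.89 and 7.14 with DHT+ENZ. ENZ was 0.76 above DMSO and DHT+ENZ 0.61 below DHT on the log2 scale, so that the interaction was -1.37 ± 0.19 (SE; limma adjusted p = 0.0217). At chr2:101023704-101023985 it was -1.80 ± 0.28 (limma adjusted p = 0.0454), with group means of 8.14 (ENZ), 4.86 (DMSO), 13.5 (DHT) and 6.70 (DHT+ENZ). At chr1:18502327-18502589 it was -1.38 ± 0.22 (limma adjusted p = 0.0454), with group means of 8.23, 4.40, 12.3 and 8.85 in the same order. In all 3 the DMSO libraries had the lowest mean and the DHT libraries the highest, with ENZ and DHT+ENZ between them. The interaction that chose the regions favours low DMSO and high DHT values, so this order is given as a description. ENZ minus DMSO alone did not pass (limma adjusted p from 0.152 to 0.454).

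These calls were fragile. Leaving out 1 of the 12 libraries gave between 0 and 6 calls, and 0 without ENZ replicate 1, DMSO replicate 2, DHT replicate 1 or DHT+ENZ replicate 3. The interaction stayed negative at all 3 regions in each of these refits. Each refit kept most of the libraries that chose the regions, so the sign is not a separate check. With replicate numbers as blocks 10 regions were called, 7 with a negative and 3 with a positive interaction.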

How the results depend on the processing

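No region was called on fold enrichment with median centring, no normalization, no trend, 25000 top-ranked or all peaks, replicate block, 12 libraries or without any 1 library (lowest and highest count 0). The pileup gave 36 calls, and 10 to 59 without 1 library, with 10 without ENZ replicate 1, 59 without ENZ replicate 2, 11 without ENZ replicate 3 and 13 without DMSO replicate 2. In the fit of 12 libraries, leaving out ENZ replicate 2 gave 1 call, at chr8:124417769-124418176. Windows of 5 Mb gave 1 call, lower in ENZ, on chromosome 14 at 20000001 to 25000000 (log2 difference -0.17, limma adjusted p = 0.0109). Windows of 10 Mb gave 0 calls with all peaks, with the replicate block and without any 1 library, and the interaction with LNCaP gave 0 with median centring, with the replicate block and without LNCaP ENZ replicate 1.

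Regions of ENZ and DMSO alone numbered 210 and 160 with 25000 top-ranked peaks, 1248 and 609 with all peaks, and 0 and 0 when a peak of any rank counted. When 2 libraries in place of 3 made up a group they numbered 707 to 908 and 624 to 851, since fewer libraries had to meet the rule.

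Without 1 library the differences, ENZ minus DMSO, ran from -8164 to 18551 for peak number, from -9.83 to 12.7 bp for length, from 0.033 to 0.436 for median fold enrichment, from -0.816 to 0.287 reads per base for background, and from -16.0 to 18.7 points for the unique share. With all peaks the length difference was -0.667 bp and the Jaccard separation -0.00202, against 0.00035 to 0.011 without 1 library. With all peaks, the differences in share were 2.12 points for regions open in RES-A DHT and not in DHT+ENZ, 0.737 for LNCaP DMSO and not DHT, 3.49 for LNCaP ENZ and not DMSO, and 1.02 for the reverse; with 25000 peaks the first was 0.0974. All exact permutation p-values there were between 0.8 and 0.9. Without the shallow LNCaP libraries, the regions of ENZ alone differed by 1.31 points between LNCaP ENZ and DMSO and by -0.0906 between LNCaP DHT+ENZ and DHT. The cause was not tested in any of these.

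Deviations of same-numbered ENZ and DMSO libraries correlated at 0.027, 0.0074 and 0.032 across regions, against -0.036 to 0.0088 for differently numbered libraries. The values were small in either case, and the numbers were not taken to pair libraries. With the replicate block, 0 regions and 0 windows were called on fold enrichment and share, 52 regions on pileup, and the peak difference of 8097 had a sign-flip p of 0.75 (exact), where 3 pairs cannot go below 0.25.

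With 3 libraries a group, the 95% interval of the difference lay within 1.5-fold at 86.8% of regions. The settings of the peak caller, shared by all lists, were not varied.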
